A study of Saccharomyces cerevisiae with 32 samples.

Results

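The genes that encode the proteins of the large (60S) subunit of the cytosolic ribosome were followed in budding yeast, Saccharomyces cerevisiae, of a tps1 mutant and a wild-type strain as the cells received glucose or fructose. Members were chosen by gene name: systematic IDs of the expression table whose standard symbol was RPL with a number and an optional A or B, or RPP0, RPP1 or RPP2 with an optional A or B. The rule matched 82 of 6717 genes. One of them, RPP1 (YHR062C), encodes a protein of the RNA-processing enzymes RNase P and RNase MRP and no ribosomal protein, and it was set apart. The other 81 genes form 46 families, of which 11 are single-copy genes and 35 are A/B pairs of paralogs. Of the 81 members 72 had a coding length of at least 300 bp. The 9 shorter members (RPL29, RPL37A, RPL37B, RPL38, RPL39, RPL41A, RPL41B, RPL43A and RPL43B) are described apart, because the libraries were selected for fragments of 200 to 600 bp, which can exceed the length of such genes. All 81 passed the filter on low values.

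The mutant was strain DBY12383, labelled tps1, and the wild type (WT) was DBY12000. Log-phase cells of each strain in YNB medium with 2% galactose gave the library at 0 min. Glucose or fructose was then added to 2%, and further cells were taken at 3, 5, 10, 15, 30, 60 and 120 min. This gave 32 libraries of poly-A RNA in 4 courses, 1 library for each strain, sugar and time. The groups below are tps1 and WT late (30 to 120 min, n = 3 in a course), tps1 and WT early (3 to 15 min, n = 4 in a course), and tps1 and WT in galactose (0 min, n = 2 for each strain). All groups came from galactose medium. The sources used here say neither whether a strain's galactose libraries were separate cultures nor what form the tps1 mutation has. The label of the tps1 library at 0 min of the fructose course holds the extra letters trd, whose meaning is not given, and without that library the calls reported below were 22 in place of 23 in tps1 late glucose and 33 in place of 34 in tps1 late fructose. The p-values after sugar therefore describe serial samples of 1 culture in each course. These were bulk samples, in which a lower value from fewer cells of a kind and one from less RNA in each cell cannot be told apart.

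The large subunit holds the centre where peptide bonds are made and the tunnel through which the new protein leaves. Yeast makes its ribosomal proteins from many unlinked genes, most of them in pairs, and in growing cells these transcripts are among the most abundant. Transcription factors that include Rap1, Fhl1, Ifh1 and Sfp1 raise them together when a rich carbon source such as glucose appears. TPS1 encodes trehalose-6-phosphate synthase, and cells without it grow on galactose but are known to grow poorly on glucose or fructose.

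The TPS1 gene checked the labels, with 0 to 1.18 FPKM in the 16 tps1 libraries and 43.2 to 325.7 FPKM in the 16 WT libraries. FPKM, fragments for each kilobase of gene and M (mega) fragments, is a level per length. Depth is unknown from the table and was estimated from the steps between low FPKM values as 3.3 to 7.95 M fragments in a library. Levels below are FPKM, and differences are log2(FPKM + 1) differences ± SE. A member was called when its limma p, adjusted by Benjamini-Hochberg over all 6203 genes tested, was under 0.05 and the difference was at least 2-fold. The scale of the libraries mattered. In the deposited values the median of all genes in tps1 late libraries lay 0.03 (log2) below galactose in glucose and 0.01 below in fructose, whereas with FPKM sums set equal it lay 0.76 and 0.87 below. The same rescaling put the WT medians 0.14 and 0.27 below galactose. The sums were those of genes that matched the annotation and had at least 300 bp. Which scale is the right one was not tested, and the direction of a member is therefore given on both where it differs. Differences among members within a library, A/B ratios and shares of a library do not depend on it.

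In galactose the 72 longer members had no called difference between the strains with limma, and 0 had an unadjusted p under 0.05, against a background of 0.177% of all genes called in either direction. This comparison came from the fit of all 32 libraries. The error of that fit also holds the changes over time within the early and late groups, so that a small difference could be missed. RPL8B, with SDs of 22.9 FPKM in tps1 and 16.9 FPKM in WT, had 0.05 ± 0.24. Member levels averaged 71 FPKM (RPL15B) to 5661 FPKM (RPP1B) in tps1 and 68.4 FPKM (RPL15B) to 5913 FPKM (RPP1B) in WT, with medians of 1944 FPKM in tps1 and 1875 FPKM in WT. RPL15B, the minor copy of the RPL15 pair, was thus the lowest member and RPP1B, of the stalk, the highest in both strains.

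After sugar the members of the tps1 strain drew apart from one another, and those of the WT moved together. In tps1 late glucose libraries the change from galactose ran over members from -0.65 (RPL22B) to 2.29 (RPL4A), with a median of 0.60 and an SD over members of 0.61. In WT late glucose libraries it ran from 0.16 to 0.76, with a median of 0.54 and an SD of 0.10. With equal sums the tps1 median turned to -0.17 and the WT median was 0.37, while the SDs stayed at 0.61 and 0.10. Late fructose gave a tps1 median of 0.99 (SD 0.45) and a WT median of 0.72 (SD 0.19), and with equal sums medians of 0.07 and 0.44. Of all genes 7.48% were called higher and 7.85% lower in tps1 late glucose than in galactose. In WT late glucose 1.74% were called in either direction. The spread over other genes was not computed, so that the wider spread in tps1 is not shown to be particular to these members.

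**Figure D1:**
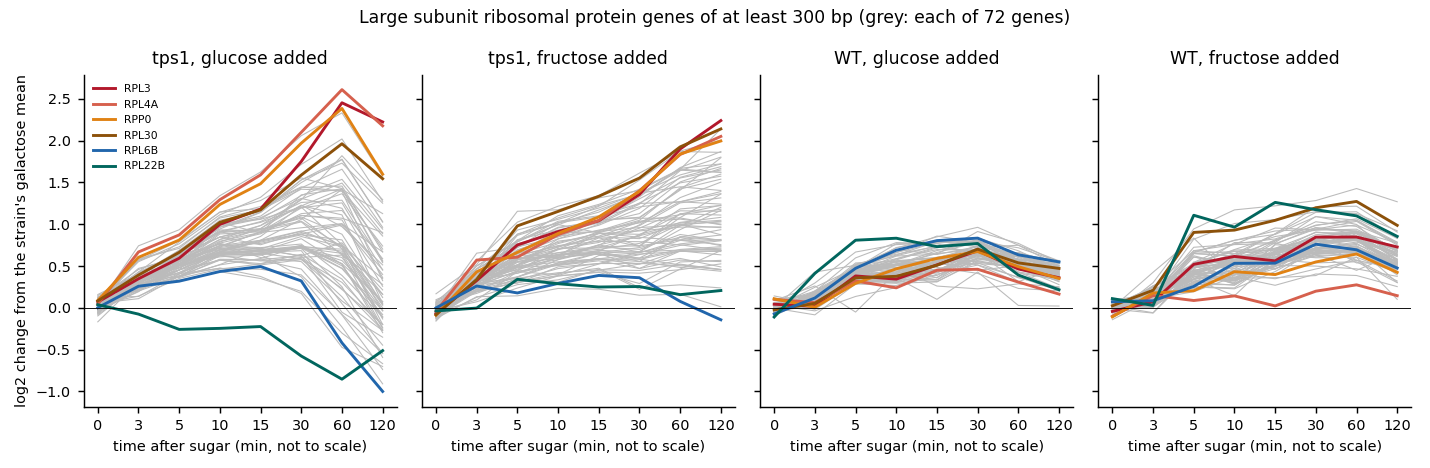
Log2 change in FPKM from the mean of a strain's galactose libraries (y axis) at 8 times after sugar in minutes (x axis, not to scale) for each of the 72 genes of at least 300 bp (grey) and 6 named genes (colours), by strain and sugar. Each point is 1 library. The lines of tps1 spread to an SD of 0.72 at 60 min in glucose and those of WT stay within a narrow band, and with FPKM sums set equal the spread is the same but the median of tps1 late glucose is negative.

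In tps1 the spread was larger late than early after sugar. Over the 72 members the SD of the log2 change was 0.46, 0.72 and 0.69 in the tps1 glucose libraries at 30, 60 and 120 min, and 0.12, 0.12 and 0.11 in the matched WT libraries. It was 0.37, 0.47 and 0.55 in tps1 fructose and 0.20, 0.20 and 0.19 in WT fructose. At 120 min in glucose 29 of 72 members lay below their tps1 galactose level, while 11 lay at least 2-fold above it and 1, RPL6B, was 2-fold below. With equal sums 47 of 72 lay below it. In WT no late library had a member below galactose as deposited, and with equal sums 0 to 2 members lay below it. Summing A and B copies did not remove the spread: over 40 families without a short member the late glucose change had an SD of 0.56 in tps1 and 0.07 in WT, from 0.16 (RPL33) to 2.21 (RPL4) in tps1 and from 0.33 (RPL4) to 0.65 (RPL33) in WT. In late glucose the RPL4 and RPL33 families thus stood at opposite ends in the 2 strains, within a narrow range in WT. In late fructose RPL33 was lowest in tps1 (0.50) and RPL4 lowest in WT (0.25). RPL33 was then not at the upper end in WT (0.59, against a family median of 0.72).

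Shares were taken of the FPKM sum over genes that matched the annotation and had at least 300 bp. As such a share of a library the 72 members were higher late after sugar than in galactose in both strains. The share was 18.9 ± 0.91% in tps1 late glucose and 16.1 ± 0.18% in tps1 galactose (SD, n = 3 and 2), and 19.9 ± 1.30% in WT late glucose and 15.4 ± 0.62% in WT galactose. In late fructose it was 19.6 ± 0.77% in tps1 and 21.1 ± 1.26% in WT. At matched times the share in late glucose was lower in tps1 than in WT at 30, 60 and 120 min (19.4, 19.5 and 17.9% in tps1, and 20.9, 20.3 and 18.4% in WT). In late fructose it was lower at 30 and 60 min and higher at 120 min (18.7, 19.8 and 20.3% in tps1, and 21.7, 21.9 and 19.7% in WT). The summed FPKM of the 72 members over that of the small subunit genes of at least 300 bp was 1.58, 1.70 and 1.69 in the tps1 late glucose libraries, and 1.45, 1.47 and 1.46 in the matched WT libraries. All 3 tps1 ratios were above the WT ones.

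**Figure D2:**
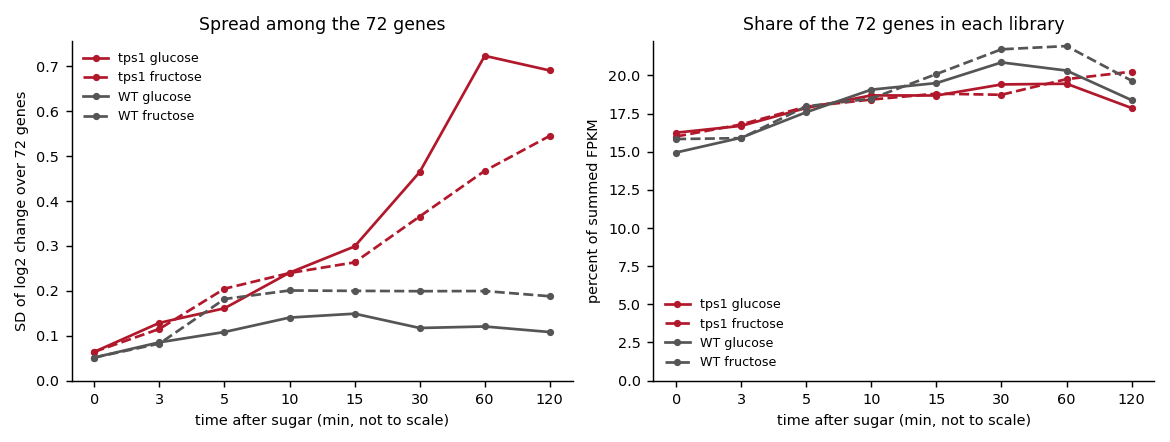
Left, the SD over 72 genes of the log2 change in FPKM from galactose (y axis) by time after sugar in minutes (x axis, not to scale). Right, the percent that these genes took in each library of the FPKM sum over annotated genes of at least 300 bp. Each point is 1 library of tps1 (red) or WT (grey), with glucose as solid and fructose as dashed lines. The SD reaches 0.72 in tps1 glucose and stays at 0.20 or less in WT, while the shares of the strains lie close together.

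In deposited values 23 of 72 members were called higher in tps1 late glucose than in tps1 galactose, against 7.48% of all genes, and none lower, against 7.85%. With equal sums 4 were called higher (RPL4A, RPL3, RPL4B and RPP0) and 5 lower (RPL33B, RPL8A, RPL27B, RPL6B and RPL22B). In tps1 late fructose 34 of 72 were called higher, against 7.5% of all genes, and 0 with equal sums. In WT late glucose none was called, against 1.74% of all genes in either direction, although 58 of 72 had an unadjusted p under 0.05. The share of all genes at that unadjusted p is not given, here or for the like counts below. Such counts are therefore not shown to be particular to the members. In WT late fructose 6 were called higher (RPL22A, RPL30, RPL9A, RPL1B, RPL22B and RPL34B), against 1.52% of all genes. That WT count was 0 without either galactose library, 3 without 30 min, 11 without 120 min and 1 with equal sums.

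The stalk is the flexible arm of the large subunit that recruits elongation factors. Its base protein P0 (RPP0) carries dimers of the P1 and P2 proteins and sits beside Rpl12. Of 7 stalk genes 5 were called higher in tps1 late glucose (median 1.10) and 6 in tps1 late fructose (median 1.56), and 0 in WT in either sugar (medians 0.51 and 0.72). Of all genes 7.48% were called higher in tps1 late glucose and 7.5% in tps1 late fructose. With equal sums the members called higher in tps1 late glucose were RPL4A, RPL3, RPL4B and RPP0, and in tps1 late fructose 0 were. These shares and equal-sums calls apply to the counts of the groups below as well. RPP0 (YLR340W, XII:805887-806825, 1 exon) had 9965, 13284 and 7701 FPKM at 30, 60 and 120 min in tps1 glucose, and 2705 and 2393 FPKM in tps1 galactose. In tps1 fructose the same times had 6680, 9108 and 10145 FPKM. In WT it had 4232, 3734 and 3387 FPKM in late glucose, 3883, 4148 and 3562 FPKM in late fructose, and 2862 and 2462 FPKM in galactose. Every late tps1 library exceeded every WT library. Against tps1 galactose the tps1 late glucose value was 3.95-fold higher (1.98 ± 0.24, adjusted p = 1.23e-06). Against WT in late glucose it was 2.67-fold higher (1.42 ± 0.15, adjusted p = 1.16e-05), a difference of 0.88 with equal sums. RPL12A and RPL12B, the stalk base genes, gave 0.37 ± 0.22 and 0.52 ± 0.23 in tps1 late glucose and were not called.

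Proteins next to the peptidyl transferase centre and the tRNA sites are Rpl3, Rpl2 and Rpl10, and all 4 of their genes were called higher in tps1 late glucose (median 1.35) and late fructose (median 1.63), and 0 of 4 in WT late glucose (median 0.49) or late fructose (median 0.69). RPL3 (YOR063W, XV:444686-445849, 1 exon) reaches with an arm into that centre. It had 9836, 16003 and 13655 FPKM in tps1 late glucose, 7483, 10909 and 13807 FPKM in tps1 late fructose, and 3067 and 2787 FPKM in tps1 galactose. In WT it had 4569, 3929 and 3654 FPKM in late glucose, 5118, 5120 and 4716 FPKM in late fructose, and 2933 and 2764 FPKM in galactose. The tps1 late values did not overlap those of WT in either sugar. The difference from tps1 galactose was 2.14 ± 0.25 in late glucose (adjusted p = 8.68e-07) and 1.37 with equal sums. The strain difference was 1.68 ± 0.19 in late glucose (adjusted p = 1.43e-05) and 1.06 ± 0.19 in late fructose. RPL10, whose protein joins late in assembly, had 6541, 7908 and 4715 FPKM in tps1 late glucose against 3247, 3157 and 2963 FPKM in WT, a strain difference just past 2-fold (adjusted p = 7.65e-05). RPL10 was 1.43 ± 0.21 above tps1 galactose.

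The exit tunnel list holds the wall and rim of the channel for the new protein, and 4 of its 13 longer genes were called higher in tps1 late glucose (median 0.57) and 4 in late fructose (median 0.73). The pair RPL4A and RPL4B, whose protein reaches into the tunnel wall, led the list. RPL4A (YBR031W, II:300166-301254, 1 exon) had 10778, 15357 and 11376 FPKM in tps1 late glucose, 6639, 8967 and 10420 FPKM in tps1 late fructose, and 2596 and 2439 FPKM in tps1 galactose. WT libraries had 3853, 3464 and 3136 FPKM in late glucose, 3213, 3386 and 3095 FPKM in late fructose, and 3001 and 2609 FPKM in galactose. Of the 72 members RPL4A had the largest change in tps1 late glucose and the smallest in WT late fructose (0.21 ± 0.21). It was 4.91-fold higher than in tps1 galactose (2.29 ± 0.21, adjusted p = 9.49e-08, and 1.52 with equal sums). Against WT it was 3.56-fold higher in late glucose (1.83 ± 0.17, adjusted p = 5.96e-06) and 2.64-fold higher in late fructose (adjusted p = 5.54e-05). RPL4B (YDR012W, IV:471853-472941) had 4553, 5500 and 3257 FPKM in tps1 late glucose against 1908, 1724 and 1540 FPKM in WT, a strain difference of 1.34 ± 0.15. RPL25, at the tunnel exit where factors for new proteins dock, was 1.03 ± 0.21 above tps1 galactose in late glucose.

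The coding sequences of RPL4A and RPL4B differ at 12 of 1089 positions and share an identical run of 422 bases, so that reads could be split between them and the level of each is uncertain, whereas their sum is not touched by such a split. The last 90 coding bases hold 6 of the 12 differing positions and are shown as a stretch that helps to tell these transcripts apart. They are read 5′ to 3′ on the coding strand from RefSeq's annotation of the R64 build, at II:301165-301254 for RPL4A and IV:472852-472941 for RPL4B, with the differing bases in capitals.
RPL4A: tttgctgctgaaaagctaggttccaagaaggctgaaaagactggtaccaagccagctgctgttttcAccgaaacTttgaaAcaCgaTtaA
RPL4B: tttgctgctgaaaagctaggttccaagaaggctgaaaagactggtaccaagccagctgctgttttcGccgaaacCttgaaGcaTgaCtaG

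Rpl5 and Rpl11 are brought into the subunit with 5S rRNA, and of these 3 genes RPL5 was called higher in both late tps1 groups. RPL5 had 9652, 11471 and 6827 FPKM in tps1 late glucose, 5273, 4508 and 3990 FPKM in WT late glucose, and 3611 and 3097 FPKM in tps1 galactose. RPL11A and RPL11B gave 0.12 ± 0.17 and 0.32 ± 0.22 in tps1 late glucose and were not called. Of the ubiquitin fusion genes, which release a ubiquitin and a ribosomal protein, RPL40A was called in both late tps1 groups (1.23 ± 0.19 and 1.07 ± 0.19) and RPL40B in neither (0.24 ± 0.18 and 0.47 ± 0.18). The bridge genes RPL24A and RPL24B, whose protein touches the small subunit, gave 0.47 ± 0.20 and 0.09 ± 0.19 in late glucose and were not called.

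The 41 remaining longer genes encode proteins of the body of the subunit, and 8 of them were called higher in tps1 late glucose (median 0.55) and 18 in tps1 late fructose (median 0.95). RPL30, whose protein is known to hold back splicing of its own transcript, had 13228, 17148 and 12833 FPKM in tps1 late glucose, 12903, 16708 and 19389 FPKM in tps1 late fructose, and 4662 and 4155 FPKM in tps1 galactose. WT libraries had 6900, 6156 and 5879 FPKM in late glucose, 9720, 10245 and 8402 FPKM in late fructose, and 4170 and 4314 FPKM in galactose. RPL30 was the highest member change in tps1 late fructose (1.87 ± 0.26) and was also called in WT late fructose (1.15 ± 0.26). RPL28, whose protein is the site of cycloheximide resistance, gave 0.49 ± 0.19 in tps1 late glucose, and RPL32 gave 0.51 ± 0.17, and neither was called there. RPL28 was called in tps1 late fructose (1.11 ± 0.19) and RPL32 was not (0.74 ± 0.17).

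**Figure D3:**
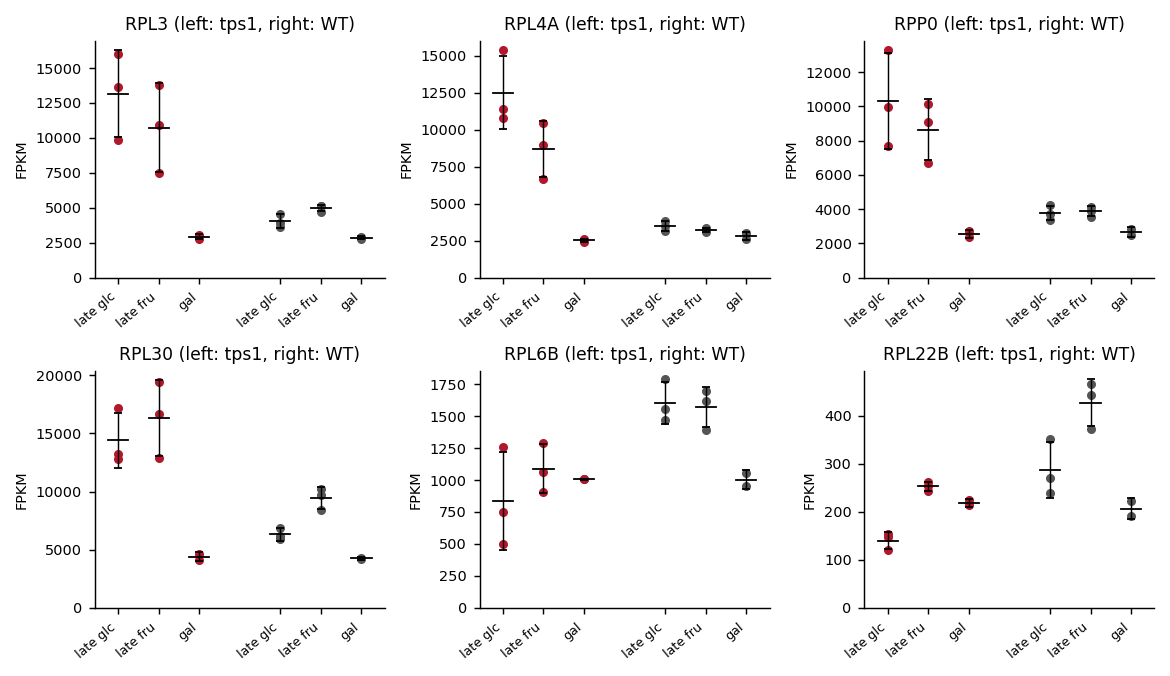
FPKM (y axis, from 0) of 6 genes in late glucose, late fructose and galactose libraries of tps1 (red, left) and WT (grey, right). Points are single libraries, horizontal lines are means and bars are SD (n = 3 late, n = 2 galactose). RPL3, RPL4A, RPP0 and RPL30 lie higher in each late tps1 library than in the late WT libraries, and within each sugar RPL6B and RPL22B lie lower.

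RPL6B and RPL22B went the other way. RPL6B (YLR448W, XII:1028854-1029768, 1 intron) had 1256, 751.6 and 502.1 FPKM at 30, 60 and 120 min in tps1 glucose and 1290, 1060 and 910 FPKM in tps1 fructose, against 1006 and 1004 FPKM in tps1 galactose. WT had 1787, 1556 and 1467 FPKM in late glucose, 1699, 1622 and 1394 FPKM in late fructose, and 952.7 and 1054 FPKM in galactose. Each late tps1 library was below each late WT library, and the strain difference in late glucose was -1.03 ± 0.16 (adjusted p = 0.000109). RPL22B (YFL034C-A, VI:64243-64932, 1 intron) had 146.3, 120.6 and 153.1 FPKM in tps1 late glucose, 261.1, 244.1 and 252.6 FPKM in tps1 late fructose, and 224.5 and 213.1 FPKM in tps1 galactose. In WT it had 351.6, 270.4 and 239.3 FPKM in late glucose, 465.5, 442.3 and 372.9 FPKM in late fructose, and 190.7 and 222.3 FPKM in galactose. Its late tps1 glucose libraries were below those of tps1 galactose, and its late WT libraries were above those of WT galactose. The strain difference was -1.02 ± 0.18 in late glucose (adjusted p = 0.000309) and -0.75 ± 0.18 in late fructose. The RPL22B call was lost without 30 min (-0.90) or 60 min (-0.95), and that of RPL6B without 120 min (-0.78). With median-of-ratios scaling both fell just short of 2-fold (-0.97 and -0.99).

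The promoters of RPL3, RPL4A, RPL6B and RPL22B are shown to set their sequence beside these values. Each is the stretch from 400 to 101 bases before the start codon, read 5′ to 3′ on the gene's strand from the R64 genome, with matches to the Rap1 core and the Abf1 consensus in capitals and all else, AAAATTTT matches included, in lower case. The regions are XV:444286-444585 for RPL3, II:299766-300065 for RPL4A, XII:1028454-1028753 for RPL6B and VI:65033-65332 (minus strand) for RPL22B.
RPL3: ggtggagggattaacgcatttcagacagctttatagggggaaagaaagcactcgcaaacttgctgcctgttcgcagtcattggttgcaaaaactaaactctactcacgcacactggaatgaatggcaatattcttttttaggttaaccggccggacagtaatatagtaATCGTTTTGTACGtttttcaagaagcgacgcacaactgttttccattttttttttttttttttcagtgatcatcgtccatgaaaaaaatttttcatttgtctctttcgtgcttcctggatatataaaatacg
RPL4A: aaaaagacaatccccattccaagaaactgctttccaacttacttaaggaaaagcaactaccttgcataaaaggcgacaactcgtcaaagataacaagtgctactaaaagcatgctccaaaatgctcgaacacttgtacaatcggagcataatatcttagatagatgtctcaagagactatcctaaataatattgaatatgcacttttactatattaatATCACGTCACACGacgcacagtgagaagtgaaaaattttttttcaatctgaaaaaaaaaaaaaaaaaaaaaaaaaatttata
RPL6B: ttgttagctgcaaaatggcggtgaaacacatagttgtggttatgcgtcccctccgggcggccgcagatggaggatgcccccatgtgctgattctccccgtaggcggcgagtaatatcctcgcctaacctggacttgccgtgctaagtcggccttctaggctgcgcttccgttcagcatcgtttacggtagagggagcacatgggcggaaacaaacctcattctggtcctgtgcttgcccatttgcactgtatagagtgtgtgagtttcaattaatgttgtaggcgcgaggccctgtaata
RPL22B: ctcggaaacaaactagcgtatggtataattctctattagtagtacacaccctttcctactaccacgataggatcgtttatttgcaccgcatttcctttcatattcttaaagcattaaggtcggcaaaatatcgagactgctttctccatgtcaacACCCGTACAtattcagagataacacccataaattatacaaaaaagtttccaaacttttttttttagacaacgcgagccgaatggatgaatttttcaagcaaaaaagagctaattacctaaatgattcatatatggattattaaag

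The capitals in RPL3 and RPL4A are matches to the Abf1 consensus, from 232 to 220 and from 182 to 170 bases before the start codon, and those in RPL22B are a match to the Rap1 core ACCCNNNCA from 245 to 237 bases before it. RPL4B and RPP0, which also rose in tps1 late glucose on both scales, had 0 matches to either motif in this window, as had RPL6B. An Abf1 match was thus not shared by all of the strongest risers. Over both strands the Rap1 core was found in 36 of 81 member promoters (44.4%) and in 8.92% of 6006 promoters of the same length. The Abf1 consensus was found in 7 of 81 (8.64%: RPL13B, RPL15A, RPL3, RPL43B, RPL4A, RPL8B and RPP1A) and in 15.1% of all. The stretch AAAATTTT was found in 9.88% of member promoters and 9.04% of all, and GATGAG in 13.6% and 18.4%. A missing match says only that these letters are not in this window, and a match is not a bound site.

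Set directly against WT at matched times, 8 of 72 members were called higher in tps1 late glucose, against 11% of all genes, and 2 lower (RPL22B and RPL6B), against 10.5%. The 8 were RPL4A, RPL3, RPP0, RPL4B, RPL30 (1.18 ± 0.14), RPP2A (1.14 ± 0.14), RPL7A and RPL10. Both shares were near or below the background, and the median over members was 0.07. Without 60 min 5 were called higher and 1 lower. With equal sums the median was -0.47, with 2 called higher (RPL4A 1.29 and RPL3 1.14) and 12 lower. In late fructose 4 members were called higher (RPL4A, RPL4B, RPP0 and RPL3), against 9.61% of all genes, with a median of 0.30. That count was 8 without 30 min and 2 without 120 min, and with equal sums it was 0 higher and 2 lower (RPL6B and RPL22B, median -0.27). The member differences between strains in late glucose and late fructose, which share no library, had Pearson's r = 0.92 over 72 members, given as a description.

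**Figure D4:**
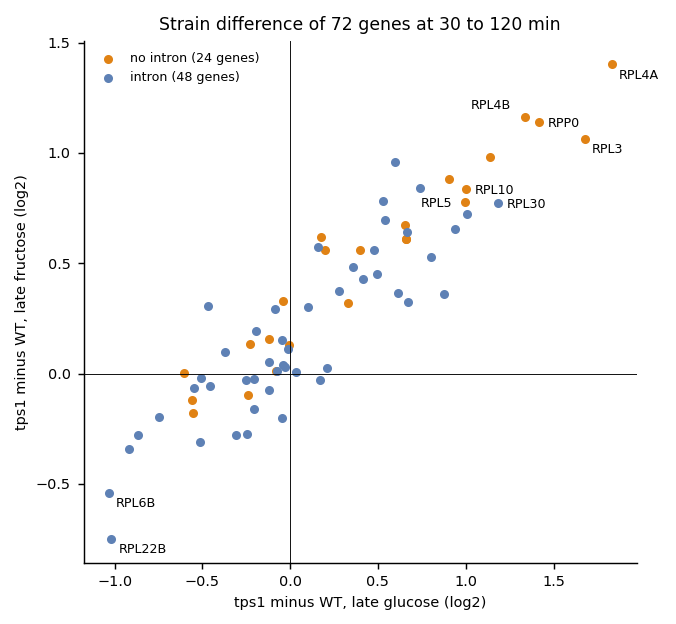
The tps1 minus WT difference in log2(FPKM + 1) over 30, 60 and 120 min in glucose (x axis) and in fructose (y axis) for 72 genes, coloured by the presence of an intron. Each point is 1 gene. RPL4A, RPL3, RPP0 and RPL4B lie at the upper right and RPL6B and RPL22B at the lower left, and equal FPKM sums shift all points by a like amount towards the lower left.

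The strain difference varied with gene structure and length. Over the 24 longer members without an intron its median was 0.36 in late glucose and 0.58 in late fructose, and over the 48 with an intron it was -0.04 and 0.10. With equal sums these values shift down with the median over members. Of the 19 members of at least 600 bp 6 were called higher and 0 lower in late glucose (median 0.65), and of the 53 shorter than 600 bp 2 were called higher and 2 lower (median -0.04). Among those 53 the median was -0.06 for the 12 without an intron and -0.04 for the 41 with one. Among the 19 it was 0.83 for the 12 without an intron and 0.41 for the 7 with one. Across the 72 members the difference in late glucose had r = 0.35 with log2 length and r = 0.28 with the log2 level in WT galactose, as descriptions over genes that share libraries. The part of length in these values was not tested.

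Early after sugar few members were called. In tps1 early glucose 3 of 72 members were called higher than in galactose (RPL4B 1.16 ± 0.21, RPL4A 1.11 ± 0.20 and RPP0 1.03 ± 0.23), against 0.403% of all genes. The count was 7 without 3 min, 1 without 15 min and 0 with equal sums. The member median in this course was 0.58 early and 0.60 late, although fewer members passed 2-fold early. In tps1 early fructose 2 were called higher (RPL22A 1.04 ± 0.27 and RPL2B 1.03), against 0.645%. That count was 7 without 3 min, 0 without 10 min, 15 min or the glucose course's galactose library, 1 without the fructose course's galactose library, and 0 with equal sums. In WT none was called in early glucose, against 7.04% of all genes in either direction, or in early fructose, against 2.42% higher, where the count was 2 without 3 min. Unadjusted p-values under 0.05 were found for 31 and 42 of the 72, again without the share of all genes at that p. Between strains none was called with limma in early glucose (35 of 72 at an unadjusted p under 0.05), against 13.2% of all genes in either direction, or early fructose (25 of 72), against 9.04%. The member medians of these strain differences were 0.21 in early glucose and 0.16 in early fructose, and with equal sums they turned to -0.10 and -0.06, and RPL22B was then called lower in early glucose (-1.12).

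From early to late within the tps1 glucose course RPL3 (1.36 ± 0.21, adjusted p = 6.12e-05) and RPL4A (1.19 ± 0.18, adjusted p = 4.38e-05) were called higher, against 1.98% of all genes, and the count was 4 without 15, 30 or 120 min. RPL3 was called higher in the tps1 fructose course (1.07 ± 0.21), against 0.306%, where the count was 0 without 3 or 120 min, 3 without 10 min, 5 without 15 min and 7 without 30 min. With equal sums RPL3 was the member called in glucose and none was called in fructose, and the member medians, 0.05 in glucose and 0.38 in fructose as deposited, turned to -0.19 and -0.04. In WT none was called from early to late in glucose, against 0.613% of all genes in either direction (0 of 72 at an unadjusted p under 0.05), or in fructose, against 0.403% (20 of 72). Late against early changes in the glucose and fructose courses, which share no library, had r = 0.89 in tps1 and r = 0.77 in WT over the 72 members. Late glucose set against late fructose gave no call among the longer members in tps1, against 1.16% of all genes called lower (44 of 72 at an unadjusted p under 0.05, median -0.35), or in WT, against 0.0806% in either direction (17 of 72, median -0.18). Without 30 min 3 members were called lower in tps1 glucose than in tps1 fructose.

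The ratio of A to B copies shifted in a few pairs of the tps1 strain, a smaller share than among all pairs tested. After sugar the log2 A/B ratio differed between tps1 and WT by at least 1.5-fold, at an adjusted p under 0.05 over 71 pairs of the genome's ribosomal and other A/B genes, in 4 of 35 large subunit pairs, against 23.9% of the 71. At that p alone 29 of 35 differed, against 58 of the 71, which is a like share. In galactose no pair was called, against 0% of the 71. At an unadjusted p under 0.05 there were 0 of 35, against 3 of the 71. Within tps1, 5 of 35 differed after sugar from galactose (RPL22, RPL33, RPL7, RPL13 and RPL8), against 19.7%. Within WT 0 of 35 differed, against 0%, and at an unadjusted p under 0.05 there were 4 of 35, against 7 of the 71. The tps1 count was 3 without the glucose library at 15 or 60 min or the fructose library at 60 or 120 min. Ratios within a library do not move with the scale.

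RPL22, whose protein is known to bind its own transcript, had the largest shift of ratio. Its log2 A/B ratio was 0.84, 1.19 and -0.01 in tps1 late glucose and 0.06, 0.41 and 0.85 in tps1 late fructose, against -1.57, -1.13 and -1.15 in WT late glucose and -1.14, -0.92 and -0.83 in WT late fructose. The ranges did not overlap, and tps1 was higher at 14 of 14 matched times (1.43 ± 0.13, adjusted p = 6.42e-07). RPL22A (YLR061W, XII:263194-263948, 1 intron) had 263.1, 276.7 and 151.9 FPKM in tps1 late glucose against 118, 122.6 and 107.2 FPKM in WT, while RPL22B was lower in tps1 as given above. The pair is 79.2% identical in coding sequence, with no identical run above 23 bases, which leaves little for reads of the A and B copies to share. The RPL22A level and the ratio are still uncertain. An unmatched entry named beside RPL22A on the opposite strand averaged 3509 FPKM, against 180 FPKM for RPL22A. Over 32 libraries they had r = 0.90, and in tps1 late glucose RPL22A changed from galactose by 1.11 and the entry by 1.09. The part of the entry was not tested. Their last 90 coding bases are shown from R64, at XII:263859-263948 for RPL22A and VI:64243-64332 (minus strand) for RPL22B, with bases that differ from or do not align to the paralog in capitals.
RPL22A: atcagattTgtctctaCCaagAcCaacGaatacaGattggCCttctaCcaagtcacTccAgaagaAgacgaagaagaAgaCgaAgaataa
RPL22B: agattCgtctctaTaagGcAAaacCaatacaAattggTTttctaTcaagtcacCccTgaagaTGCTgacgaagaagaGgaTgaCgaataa

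RPL7, a body protein whose genes carry 2 introns each, and RPL33 also moved towards the A copy in tps1 after sugar. The RPL7 ratio was 4.72, 5.27 and 5.29 in tps1 late glucose and 3.55, 3.69 and 3.38 in WT late glucose, with a difference over all times after sugar of 0.92 ± 0.07 (adjusted p = 2.71e-07). Part of this strain difference was present before sugar. The RPL7 ratio in galactose was 3.79 and 3.75 in tps1 and 3.41 and 3.39 in WT, without overlap (0.36 ± 0.19, not called). The RPL33 ratio was -0.87, -0.24 and -0.13 in tps1 late glucose and -1.80, -1.77 and -1.75 in WT late glucose, with a difference over all times after sugar of 0.69 ± 0.06 (adjusted p = 2.71e-07). In late fructose it was -0.53, -0.52 and -0.25 in tps1 and -1.21, -1.16 and -1.12 in WT. The WT galactose libraries had RPL33 ratios of -1.68 and -1.53, so that in fructose WT moved towards the A copy as well. RPL13, another body protein, moved towards the B copy. Its ratio was -2.23, -2.83 and -2.68 in tps1 late glucose and -1.47, -1.40 and -1.38 in WT late glucose, with a difference of -0.64 ± 0.06 (adjusted p = 7.05e-07) and tps1 higher at 0 of 14 times. RPL13A had 1275, 871.1 and 554.2 FPKM in tps1 late glucose against 1521, 1440 and 1334 FPKM in WT, and RPL13B had 5972, 6214 and 3560 FPKM against 4213, 3814 and 3475 FPKM. The RPL4 ratio differed by 0.25 ± 0.04 and was not called.

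**Figure D5:**
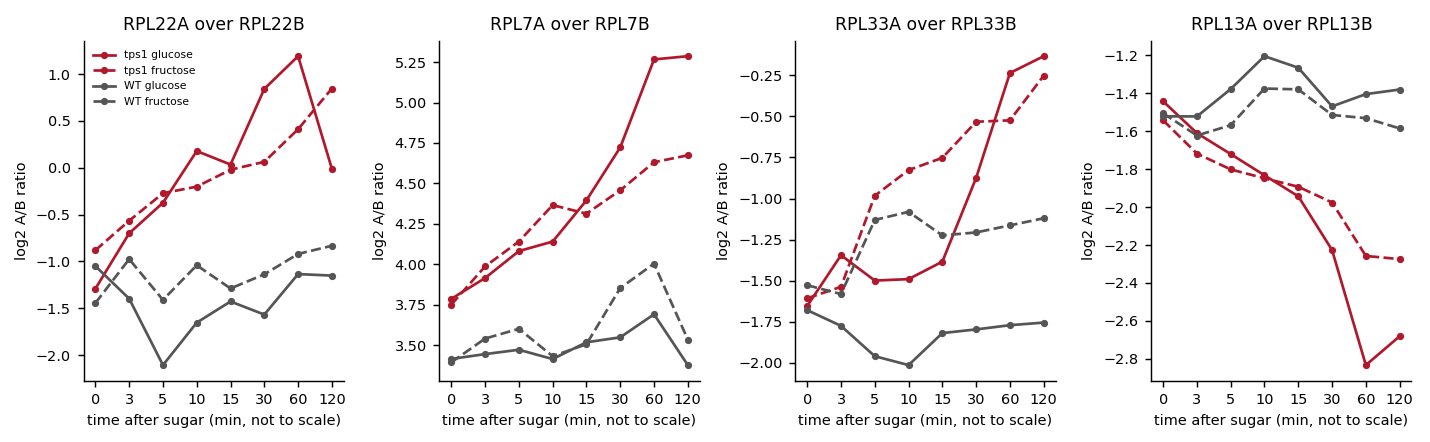
Log2 ratio of A over B copy FPKM (y axis) by time after sugar in minutes (x axis, not to scale) for 4 paralog pairs in tps1 (red) and WT (grey), glucose solid and fructose dashed. Each point is 1 library. The RPL22, RPL7 and RPL33 ratios are higher and the RPL13 ratio lower in tps1 at 14 of 14 matched times after sugar.

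Read assignment limits some levels. Over the 35 pairs coding identity ran from 70.3% to 99.4% (median 93.2%), and 12 pairs shared an identical run of at least 100 bases. For 10 of 81 members (12.3%, against 1.19% of other coding genes) the table listed an entry without a match in the annotation whose systematic name places it beside the member on the opposite strand, with a mean of at least 200 FPKM. RPL22A averaged 180 FPKM over the 32 libraries and its neighbouring entry 3509 FPKM. RPL33A averaged 1162 FPKM and its entry 5856 FPKM, RPL28 645.3 FPKM and its entry 5420 FPKM, RPP0 4875 FPKM and its entry 6049 FPKM, RPL10 3891 FPKM and its entry 5079 FPKM, and RPL7B 207.1 FPKM and its entry 232.7 FPKM. The others were RPL12A, RPL12B, RPL39 and RPL43A. The library kit marks strand, but use of strand in counting is not stated in the sources at hand, so that the levels of these members and the ratios of the RPL22, RPL33, RPL7, RPL12 and RPL43 pairs are uncertain, and the part of the entries in them was not tested. Without such members 64 longer ones remained, of which 20 were called higher in tps1 late glucose and 28 in tps1 late fructose. Without pairs that hold such a member 1 large subunit pair differed between strains after sugar and 2 between tps1 after sugar and tps1 galactose.

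The shorter members were less certain. RPL41A and RPL41B, at 78 bp of coding sequence the shortest, were listed at 0 in 11 and 10 of 16 tps1 libraries and in 16 and 10 of 16 WT libraries, and no difference is given for them. RPL43A ran from 1.55 to 14.3 FPKM in tps1 and from 0 to 11.1 FPKM in WT, beside an opposite entry of 5784 FPKM. RPL43B ran from 2224 to 11820 FPKM in tps1 and from 2159 to 7343 FPKM in WT. It was called in tps1 early fructose (1.27), both late fructose groups and lower in tps1 late glucose than in tps1 late fructose (-1.13). RPL39, part of the tunnel wall, ran from 1119 to 4464 FPKM in tps1 and from 1146 to 3884 FPKM in WT and was called in tps1 late glucose and both late fructose groups. RPL29 was called in tps1 late glucose, RPL37A and RPL38 in both late fructose groups and RPL37B in tps1 late fructose.

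Genes that work with these proteins moved in part with them. Of 56 small subunit genes 16 were called higher and 1 lower in tps1 late glucose than in galactose (median 0.48), against 7.48% and 7.85% of all genes, 23 higher in tps1 late fructose (median 0.91), against 7.5% of all genes, and 14 higher in WT late fructose (median 0.73), against 1.52%. Against WT in late glucose 4 small subunit genes were higher and 6 lower (median -0.06). Of 9 elongation factor genes 2 were called higher in tps1 than in WT in late glucose (median 0.43), CAM1, of the eEF1B complex (1.71 ± 0.18), and TEF2, which encodes eEF1A (1.10 ± 0.16). Of 24 genes for assembly and chaperones of the large subunit 1 was higher and 7 lower (median -0.49), among them SQT1, the chaperone of Rpl10 (-1.25 ± 0.16), SYO1, the chaperone of Rpl5 and Rpl11 (-1.65 ± 0.31), and NOG1, an assembly GTPase (-2.12 ± 0.32). Of 16 genes for regulators of ribosomal protein genes 0 were higher and 7 lower (median -0.79), among them RAP1 (-1.41 ± 0.21), ABF1 (-1.32 ± 0.19) and SFP1 (-1.27 ± 0.20). Of all genes 11% were higher and 10.5% lower in this comparison. In late fructose 5 assembly genes and 9 regulator genes were lower in tps1 (medians -0.31 and -1.09), against 9.79% of all genes called lower. For all 6203 genes the median strain difference was -0.05 in late glucose and -0.02 in late fructose, and with equal sums it was -0.55 in both. That shift applies to these lists as well and is larger than the elongation factor median, and the shift of the galactose comparisons given above is larger than the small subunit median of tps1 late glucose.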

How the data were processed

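Poly-A RNA of 32 libraries was measured. Per the submitters' processing notes the authors used CASAVA 1.4, TopHat2, Cuffnorm and the sacCer3 build, and the deposited table holds FPKM. Per the labels' protocols the kit was stranded. Cuffnorm's scaling and the use of strand are not given in the sources used. Of 6717 IDs 6025 matched RefSeq's R64 annotation, which gave symbols, coding lengths and sequences, and 692 did not. The 1 entry without an ID (at most 0.00076% of a library) was left out.

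The 6203 genes that averaged 1 FPKM or more were tested as log2(FPKM + 1) with limma 3.58.1 (trended prior variance, Benjamini-Hochberg) in R 4.3.3 (package data.table, version 1.17.8). Courses were compared with galactose, and gene levels between the strains in galactose, in a fit of all 32 libraries. Strains after sugar were compared over 16 matched tps1 minus WT differences, and sugars over 16 matched glucose minus fructose differences. A/B ratios were fitted over 71 pairs. Depth came from steps between low FPKM values, of which 90.6% lay within 0.1 of a whole fragment, and 1 fragment over 1 kb equalled 0.0876 to 0.344 FPKM. The fits were tested on simulated data. Python 3.11.15, numpy 2.4.6, pandas 2.3.3 and matplotlib 3.10.9 made tables and figures.

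Named genes were, in each comparison, up to 3 called members of at least 300 bp with the largest positive and 3 with the largest negative difference, RPP0, 7 single-copy genes, the 4 called pairs with the largest difference, and RPL22. Other names were chosen after their values were seen. The members, gene lists, motifs and tests were chosen with earlier results of these data known. Alternatives were other pseudocounts, filters and scalings, single galactose libraries as baseline, and each library left out. Leaving out genes under 300 bp, ribosomal pairs alone, and pairs without an opposite entry were added after seeing the data.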

Additional observations from a re-analysis of the deposited data

Results flagged for a closer look

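Of 88 groups of 4 libraries tested for a library far from the others, 1 was flagged: in WT early fructose the SD over members was 0.0823 at 3 min, apart from the other 3 libraries (gap over range 0.84, above the critical value). Chance flags about 1 in 20 groups.

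The named genes and pairs gave 38 results over both sugars. In 3 of 38 every late library of tps1 in a sugar moved one way from galactose and every late library of WT the opposite way. All 3 were in late glucose. Many of the named genes and pairs had been chosen for their differences in these data. The differences were flagged by direction alone and were not tested by that rule. RPL22B changed by -0.65 (log2 FPKM) in tps1 and by 0.46 in WT. The RPL13 log2 A/B ratio changed by -1.09 in tps1 and by 0.10 in WT. The RPL33 log2 A/B ratio changed by 1.22 in tps1 and by -0.17 in WT.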

How the results depend on the processing

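Of the results that answer a comparison, 264 recomputed values stayed near the reported one and 43 moved. For the named genes, 262 recomputed values kept their direction and call and 52 fell short of the call, and for the named pairs 152 and 6. Over all results that do not answer a comparison, 639 recomputed values stayed the same, 58 were weaker, 9 moved and 3 reversed. With equal FPKM sums the members called were 0 in tps1 early glucose, 9 in tps1 late glucose, 0 in both tps1 fructose groups, 1 in WT late fructose, 1 and 0 late against early in tps1 glucose and fructose, and, for tps1 against WT, 1 in early glucose, 14 in late glucose (2 higher and 12 lower) and 2 in late fructose. Medians then turned to -0.17 for tps1 late glucose, to -0.19 and -0.04 late against early in tps1 glucose and fructose, and to -0.10 in early glucose, -0.06 in early fructose, -0.47 in late glucose and -0.27 in late fructose for tps1 against WT, since the rescaling shifts every gene. With the same course's galactose library alone as baseline, tps1 early fructose had 0 and WT late fructose 0 calls, and with the other course's alone 1 and 0. Without pairs with an opposite entry 1 pair differed between strains and 2 within tps1.

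Leaving out 1 library at a time gave 1 to 7 calls in tps1 early glucose, 18 to 29 in tps1 late glucose, 0 to 7 in tps1 early fructose, 31 to 40 in tps1 late fructose, 0 to 2 in WT early fructose, 0 to 11 in WT late fructose, 2 to 4 and 0 to 7 late against early in tps1 glucose and fructose, 6 to 12 in late glucose and 2 to 8 in late fructose for tps1 against WT, 0 to 3 for tps1 late glucose against fructose, and 3 to 6 pairs in tps1 after sugar against galactose. The cause of these moves was not tested. Strains after sugar, and sugars, were matched by time in their fits, and the labels give no replicate numbers to block on. Depth of at most 7.95 M fragments limits the low members, such as RPL43A.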
